A study of Arabidopsis thaliana with 114 samples.

Results

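Roots of Arabidopsis thaliana seedlings were compared 20 min after nitrogen supply with roots given KCl for the same time. The 6 libraries are those whose titles name root, 20 min and either N or C, 3 of each, out of 114 libraries in the whole time series of roots and shoots. N roots received KNO3 and NH4NO3 at 20 mM each, which is 60 mM nitrogen. KCl roots, the control, received 20 mM KCl. All seedlings had grown before that on 1 mM KNO3 with 1% sucrose, so both groups had met nitrate before the treatment. Values of 3 untreated root libraries taken at time 0 are given beside them, of which replicate 1 is named root in its title and shoot in its source label. Nitrate, ammonium, chloride and total salt differ together between N and KCl and cannot be told apart. Age and ecotype are not given in the sources used here, nor whether replicates were separate cultures, so p-values measure the spread between these samples, which may be technical.

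Nitrate is both a nutrient and a signal for plant roots. It is taken up by transporters of the NRT1 (NPF) and NRT2 families, reduced to nitrite by nitrate reductase in the cytosol and to ammonium by nitrite reductase in plastids, and built into glutamine and glutamate. The transceptor NPF6.3 and NLP transcription factors start the rapid change in transcripts called the primary nitrate response, which includes the genes of nitrate use as well as repressors that later limit it.

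Polyadenylated RNA was sequenced and read counts per gene were deposited, with 25887452 to 38466832 counts on genes in the 3 N libraries and 28193876 to 41978383 in the 3 KCl libraries. Values are CPM, counts scaled to a common library size. CPM compares a gene between libraries and is not adjusted for gene length. The 12 root libraries of 10 and 15 min stood apart from the other 45, at 136.2 to 200.2 against -59.8 to -36.4 on a first principal component that held 59.1% of the variance. They share the estimate of the spread with the libraries of 20 min, so the count of calls is given with and without them. The 15 root markers summed to 303.4 to 327.2 CPM in N and 321.8 to 369.2 CPM in KCl, and the 20 photosynthetic shoot markers to 110.8 to 248.0 CPM in N and 120.7 to 270.0 CPM in KCl, and 0 of either list were called (at an unadjusted p under 0.05, 1 root marker was higher and 1 lower and 0 shoot markers passed, and DESeq2 and limma voom called 0). In these bulk samples fewer cells of a type and less RNA per cell cannot be told apart.

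Of 22185 genes tested, 834 passed an adjusted p of 0.05 in edgeR's quasi-likelihood test with Benjamini-Hochberg adjustment, which is the test behind every adjusted p given for this comparison. They comprised 595 genes higher in N (2.68% of those tested) and 239 lower in N (1.08%), 3.76% together. The higher genes had a median log2 fold change of 1.27, against -0.82 for the lower genes and -0.00503 over all genes tested. The gap varied with level, taken as the mean CPM of the group in which a gene was higher. At 10 to 100 CPM the medians were 0.86 and -0.77, and at 100 CPM or more 1.17 and -0.67. Under 1 CPM lay 80 of the higher genes (median 2.86) and 5 of the lower genes (median -3.85). A log2 change of at least 1 was reached by 386 of the higher and 76 of the lower genes. In 833 of the 834 the 3 N libraries did not overlap the 3 KCl libraries, while among all genes tested 16.4% had N above KCl and 14.9% had N below KCl without overlap. Without the libraries of 10 and 15 min the test called 934 genes, 653 higher and 281 lower, among them 795 of the 834. The list counts given below stayed the same in that fit except that 6 genes of reduction and 3 of auxin were higher and 3 touch genes lower. Leaving out 1 library lowered the count to 532 (N replicate 1), 449 (N replicate 2), 514 (KCl replicate 1), 524 (KCl replicate 2) or 509 (KCl replicate 3), and to 746 without N replicate 3.

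**Figure D1:**
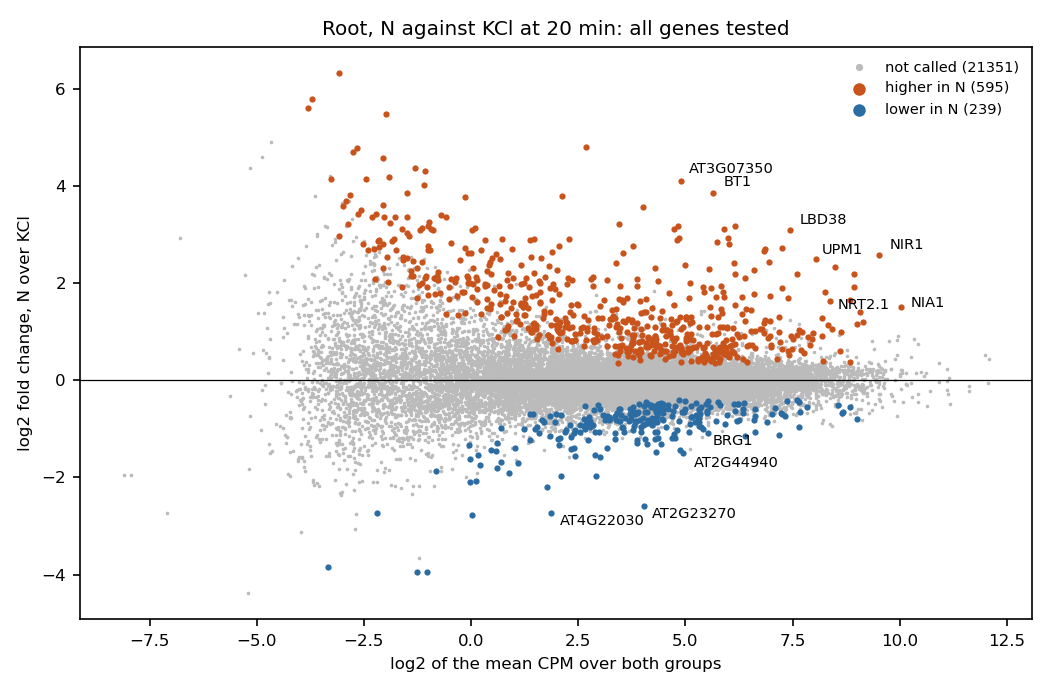
Log2 fold change of N over KCl in root at 20 min against the log2 mean CPM of both groups, 1 point per gene tested, with the 595 genes higher in N in orange, the 239 lower in blue and those not called in grey. NIA1 and NIR1 lie furthest right among the higher genes, whose median log2 change of 1.27 is further from 0 than the -0.82 of the lower genes.

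Of the genes that turn nitrate into ammonium, NIR1 and NIA1 were called higher and NIA2 was not. NIR1, which encodes nitrite reductase, stood at 1283, 1150 and 1322 CPM in N roots and 274.5, 172 and 185 CPM in KCl roots, against 64.3, 95.4 and 93.8 CPM before treatment (log2 2.57, SE 0.262, adjusted p = 9.4e-10). Every N library lay far above every KCl library, and KCl replicate 1 was the highest of the controls. UPM1, a methylase in the synthesis of the siroheme that nitrite reductase carries, stood at 557, 589 and 644 CPM in N and 144, 99.3 and 113 CPM in KCl (log2 2.33, SE 0.195, adjusted p = 1.32e-11). The nitrate reductase gene NIA1 had 1628, 1461 and 1530 CPM in N and 599.8, 480.4 and 538 CPM in KCl (log2 1.51, SE 0.241, adjusted p = 2.32e-05). The groups of these 3 genes did not overlap. NIA2, the other nitrate reductase gene, had 1807, 1529 and 1630 CPM in N and 1014, 834 and 926 CPM in KCl. Its groups did not overlap either, but it narrowly missed the threshold (log2 0.84, SE 0.265, adjusted p = 0.0648).

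Nitrate reductase also needs a molybdenum cofactor. CNX2, which acts in the first step of its synthesis, had 53.4, 52.0 and 51.7 CPM in N and 35.6, 31.95 and 32.1 CPM in KCl (log2 0.66, SE 0.11, adjusted p = 5.13e-05), and AT2G43760, annotated as a molybdopterin biosynthesis MoaE family protein, was higher by log2 0.63 (SE 0.135, adjusted p = 0.00242). CNX1, CNX3, CNX5 and CNX7 of the same pathway stood between log2 0.01 and 0.27 and did not pass, nor did SIRB (0.14). Among the 11 genes of reduction and cofactors, 5 were higher, 0 lower and the median was 0.63.

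Nitrite reduction draws electrons from ferredoxin, which in roots is fed by the oxidative pentose phosphate pathway. That supply had 7 of its 10 genes higher in N and 0 lower (median 1.68). G6PD3, a glucose-6-phosphate dehydrogenase of plastids and the entry enzyme of the pathway, had 236, 244 and 317 CPM in N and 54.35, 31.9 and 35.5 CPM in KCl (log2 2.71, SE 0.286, adjusted p = 2.3e-09), and its relative G6PD2 was higher by log2 1.73 (SE 0.173). AT5G41670 and AT1G64190, both annotated as 6-phosphogluconate dehydrogenase family proteins, were higher by 1.92 (SE 0.179) and 1.62 (SE 0.143). The third member of that family in the list, AT3G02360, averaged 345 ± 11.1 CPM in N and 411 ± 43.3 CPM in KCl and was not called (log2 -0.25).

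The root-type ferredoxin reductases, which pass electrons from NADPH to ferredoxin, followed the same direction. RFNR2 had 743.5, 807 and 855 CPM in N and 211, 159 and 159.6 CPM in KCl (log2 2.18, SE 0.214, adjusted p = 3.58e-10). RFNR1 had 291, 331 and 337 CPM in N and 87.1, 58.8 and 64.1 CPM in KCl (log2 2.19, SE 0.195, adjusted p = 3.81e-11). For FD3, a ferredoxin of non-green plastids, the values were 663, 693 and 785 CPM in N and 325, 313 and 318 CPM in KCl (log2 1.16, SE 0.146, adjusted p = 1.75e-07). No N library overlapped a KCl library in any of the 7. G6PD3 shares 76 bases with AT1G24290 and 315 bases with AT1G05867, which was not tested, both on the opposite strand. The strand setting of the counting is not given in the sources used here.

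Among 23 genes of uptake, transport and channels the test called 4 higher and 0 lower (median 0.08). NRT2.1, the main high-affinity nitrate transporter of roots, had 459, 441 and 536 CPM in N and 171, 111 and 129 CPM in KCl (log2 1.81, SE 0.383, adjusted p = 0.00202), against 34.5, 44.5 and 75.1 CPM before treatment. NRT3.1, the partner protein it needs, had 409.7, 427.5 and 475 CPM in N and 242, 178.5 and 179.9 CPM in KCl (log2 1.13, SE 0.207, adjusted p = 0.000269). The neighbouring and very similar gene NRT2.2 had 16.1, 15.4 and 21.35 CPM in N and 4.135, 4.36 and 1.43 CPM in KCl (log2 2.42, SE 0.526, adjusted p = 0.00275), and reads shared with NRT2.1 make its level uncertain. NPF6.3, the dual-affinity transceptor, was higher by log2 0.86 (adjusted p = 0.0137) but missed the threshold without KCl replicate 2 (0.11) or KCl replicate 3 (0.056). NRT2.4 and NRT2.5, high-affinity transporters of nitrogen-starved roots, stood at log2 0.47 and -0.11, and NPF7.3, which loads nitrate into the xylem, at 0.25, all without a call.

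All 20 genes of ammonium uptake and assimilation tested missed the threshold in edgeR's test, with a median of -0.10 and a range of -0.69 to 1.78. Before adjustment 1 was higher and 5 lower at p under 0.05, and DESeq2 and limma voom called 0. Of the same 20 genes, 4 were called higher and 0 lower in root at 30 min, and 3 higher and 0 lower in shoot at 20 min. The glutamine synthetase gene GLN1;2 averaged 1123 ± 104 CPM in N and 1195 ± 239 CPM in KCl (SD, n = 3 each), plastid GLN2 125 ± 9.56 CPM in N and 104 ± 11.5 CPM in KCl, and GLT1, the NADH-dependent glutamate synthase, 804 ± 132 CPM in N and 633 ± 53.9 CPM in KCl. The member with the largest log2 value, the asparagine synthetase gene ASN1, averaged 1.22 ± 0.992 CPM in N and 0.355 ± 0.188 CPM in KCl. Among 7 genes that supply carbon skeletons, the 2 kinases that activate phosphoenolpyruvate carboxylase were higher. PPCK2 had 45.0, 55.5 and 55.0 CPM in N and 21.8, 12.5 and 13.8 CPM in KCl (log2 1.69, SE 0.205, adjusted p = 7.53e-08). PPCK1 was higher by log2 0.72 (adjusted p = 0.0127), and its call was lost without N replicate 3 (0.0686), KCl replicate 2 (0.0565) or KCl replicate 3 (0.0851). The carboxylase genes PPC1 to PPC4 themselves stood between -0.41 and 0.72 and were not called.

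**Figure D2:**
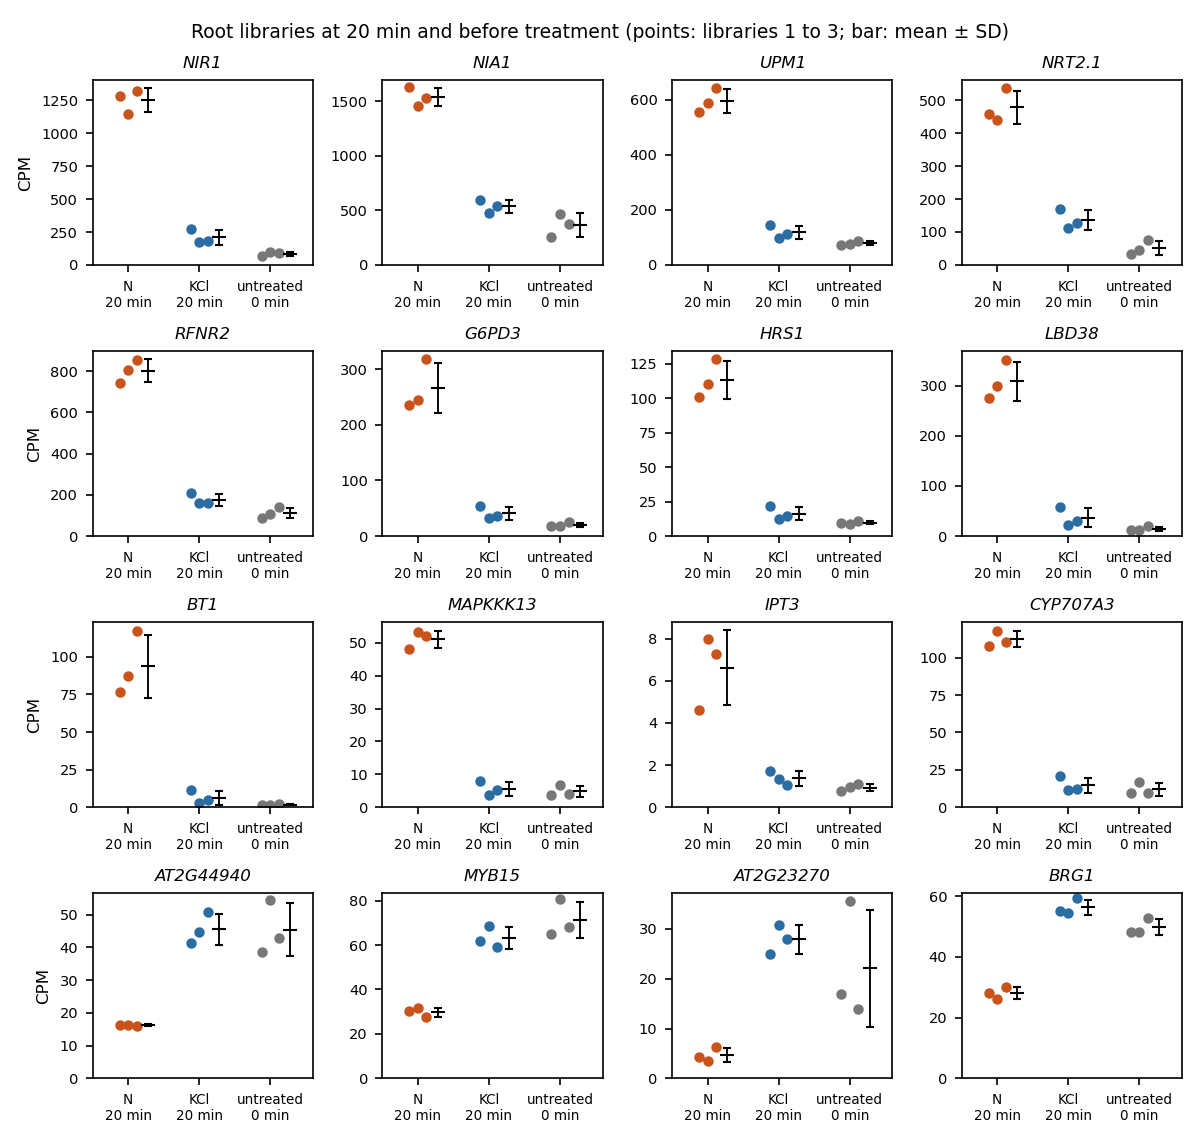
CPM of 16 genes in each root library, with N at 20 min on the left, KCl at 20 min in the middle and untreated roots of time 0 on the right; points are the 3 libraries and bars the mean ± SD (n = 3), and each axis starts at 0. The first 12 genes lie higher and the last 4 lower in every N library than in every KCl library.

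Among 34 transcription regulators the test called 16 higher (47.1%) and 0 lower (median 0.57). LBD37, LBD38 and LBD39, repressors of nitrate-responsive genes, rose together. LBD38 had 274, 299.7 and 352 CPM in N and 58.3, 21.15 and 30.05 CPM in KCl (log2 3.08, SE 0.319, adjusted p = 1.54e-09), and LBD37 414, 427 and 517 CPM in N and 105, 65.6 and 71.95 CPM in KCl (log2 2.49, SE 0.242, adjusted p = 3.43e-10). LBD39 had 23.56, 31.1 and 34.5 CPM in N and 4.11, 1.40 and 1.85 CPM in KCl (log2 3.57, SE 0.431, adjusted p = 7.37e-08). All N libraries were above all KCl libraries for the 3 genes, and KCl replicate 1 was the highest control in each. Without KCl replicate 1 the fold of LBD39 became larger, at log2 4.20.

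The HRS1 family of Myb-like repressors, which acts as a brake on nitrate uptake genes and links nitrate with phosphate signals, had 4 of its members called. HRS1 had 101, 110.2 and 128 CPM in N and 21.5, 12.6 and 14.3 CPM in KCl (log2 2.81, SE 0.242, adjusted p = 2.47e-11). AT1G25550 had 108, 117 and 129 CPM in N and 33.8, 22.5 and 21.1 CPM in KCl (log2 2.19, SE 0.198, adjusted p = 4.74e-11). AT3G25790 had 128, 121 and 135.5 CPM in N and 18.3, 11.15 and 13.2 CPM in KCl (log2 3.17, SE 0.38, adjusted p = 6.32e-08), and AT1G68670 was higher by log2 1.79 (SE 0.238). Further Myb-like genes of the list, AT1G49560, AT2G03500 and AT4G37180, stood at 0.19, 0.19 and 0.49 and were not called.

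HRS1 family proteins bind GAATC. The upstream windows of HRS1 and AT1G25550, the members of that family with the smallest p, are shown with that of UPM1, which had the smallest p of the genes whose windows were examined, and that of NIR1, a textbook nitrate-induced gene chosen after its values were seen. Each window is the 300 bases before the annotated gene start in RefSeq's TAIR10.1, found by locus tag and printed 5′ to 3′ on the gene's strand. Capitals mark GAATC or TGACG (the motif of TGA factors), or their reverse complements GATTC and CGTCA.
UPM1, chr5:16365600-16365899, plus strand: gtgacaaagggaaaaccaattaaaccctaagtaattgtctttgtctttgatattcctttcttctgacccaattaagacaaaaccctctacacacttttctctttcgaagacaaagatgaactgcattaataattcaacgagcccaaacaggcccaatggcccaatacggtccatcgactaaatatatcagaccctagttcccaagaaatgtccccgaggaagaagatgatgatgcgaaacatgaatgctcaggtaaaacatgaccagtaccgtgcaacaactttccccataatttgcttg
HRS1, chr1:4556578-4556877, plus strand: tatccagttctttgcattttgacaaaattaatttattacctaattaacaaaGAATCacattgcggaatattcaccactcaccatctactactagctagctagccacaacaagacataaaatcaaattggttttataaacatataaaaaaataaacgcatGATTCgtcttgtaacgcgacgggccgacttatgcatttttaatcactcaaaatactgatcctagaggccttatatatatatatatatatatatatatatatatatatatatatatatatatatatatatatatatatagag
AT1G25550, chr1:8976026-8976325, plus strand: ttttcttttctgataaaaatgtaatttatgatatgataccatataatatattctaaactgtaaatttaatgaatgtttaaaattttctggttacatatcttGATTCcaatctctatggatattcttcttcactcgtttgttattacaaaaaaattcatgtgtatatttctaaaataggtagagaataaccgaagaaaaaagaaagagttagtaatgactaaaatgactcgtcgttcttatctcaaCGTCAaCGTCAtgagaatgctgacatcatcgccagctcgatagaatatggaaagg
NIR1, chr2:6810095-6810394, plus strand: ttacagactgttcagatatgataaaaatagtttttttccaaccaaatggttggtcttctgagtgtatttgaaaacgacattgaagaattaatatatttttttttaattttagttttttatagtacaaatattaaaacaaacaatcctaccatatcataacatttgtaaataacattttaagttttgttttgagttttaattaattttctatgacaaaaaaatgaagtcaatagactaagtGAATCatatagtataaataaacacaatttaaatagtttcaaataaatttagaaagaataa
UPM1 holds no match, HRS1 holds 2 GAATC matches, AT1G25550 holds 1 GAATC and 2 TGACG matches, and NIR1 holds 1 GAATC match. Of the 6 windows of the genes with the smallest p among the 32 below, those of UPM1, RFNR1 and AT5G41670 hold neither motif and that of AT1G64190 holds 1 GAATC match. GAATC on either strand occurred in 23 of 32 windows of the members higher in N in the lists of reduction, transport, reductant supply and regulators (71.9%), against 45.3% of 21659 windows of genes tested and 42.2% of 587 windows of genes higher in N. TGACG occurred in 15.6% of the 32 windows and 22.0% of all windows of genes tested. The core of the nitrate-responsive element, searched on both strands, was in 0 of the 32 and in 31 of the 21659 (0.143%). GAATC and TGACG do not contain each other, and the element core can share bases with either. A match is only a description of letters in the window.

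BT1, BT2 and BT5 encode scaffold proteins with BTB and TAZ domains. BT1 had 76.7, 87.1 and 117 CPM in N and 11.7, 2.77 and 4.615 CPM in KCl (log2 3.86, SE 0.467, adjusted p = 7.53e-08). The 3 N libraries were far above the controls, and KCl replicate 1 stood above the other two controls. Without KCl replicate 1 the difference was log2 4.67. BT5 was higher by 2.29 (SE 0.235), and BT2, at 3.199, 4.87 and 5.51 CPM in N and 1.15, 0.892 and 0.899 CPM in KCl, by 2.2 (SE 0.373). BT3 and BT4 were not called, at 0.61 and -0.22.

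Of the NLP factors, which bind nitrate-responsive promoters, NLP3 had 242, 222 and 257 CPM in N and 84.8, 54.8 and 55.5 CPM in KCl (log2 1.89, SE 0.289, adjusted p = 1.11e-05) and NLP1 was higher by 0.68 (SE 0.11, adjusted p = 3.06e-05). NLP7, the factor that is held in the nucleus after nitrate supply, averaged 164.5 ± 21.4 CPM in N and 122 ± 13.3 CPM in KCl and was not called (log2 0.44, SE 0.147, adjusted p = 0.089). The bZIP factor TGA1, which regulates NRT2.1 and NRT2.2 in roots, had 305, 291 and 360.2 CPM in N and 197, 149.5 and 182 CPM in KCl (log2 0.85, SE 0.139, adjusted p = 3.32e-05). Its relative TGA4 was higher by 0.53 (adjusted p = 0.0229), a call lost without N replicate 3 (0.0847) or KCl replicate 2 (0.14). NAC080 was higher by 1.33 and the Dof factor CDF1 by 0.88 (adjusted p = 5.68e-06 and 0.0023). ANR1, a MADS-box factor of lateral root growth, stood at 0.47 and TCP20 at 0.29 without a call.

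Among 13 kinases linked to nitrate signalling, 3 were higher and 0 lower. The MAP kinase kinase kinase genes MAPKKK13 and MAPKKK14 changed most. MAPKKK13 had 48.2, 53.2 and 52.0 CPM in N and 8.01, 3.79 and 5.10 CPM in KCl (log2 3.17, SE 0.279, adjusted p = 3.11e-11), and MAPKKK14 had 101, 86.8 and 93.1 CPM in N and 19.6, 8.60 and 10.6 CPM in KCl (log2 2.85, SE 0.25, adjusted p = 3.11e-11). CIPK3, a kinase regulated by calcium sensors, had 46.8, 52.7 and 49.8 CPM in N and 22.2, 21.25 and 21.4 CPM in KCl (log2 1.2, SE 0.146, adjusted p = 7.56e-08). Before treatment CIPK3 stood at 35.25, 36.15 and 34.8 CPM, between the groups. CIPK23, which phosphorylates NPF6.3, was at log2 0.25 and CIPK8 at 0.31, and neither was called, nor was MKK3 (-0.13).

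**Figure D3:**
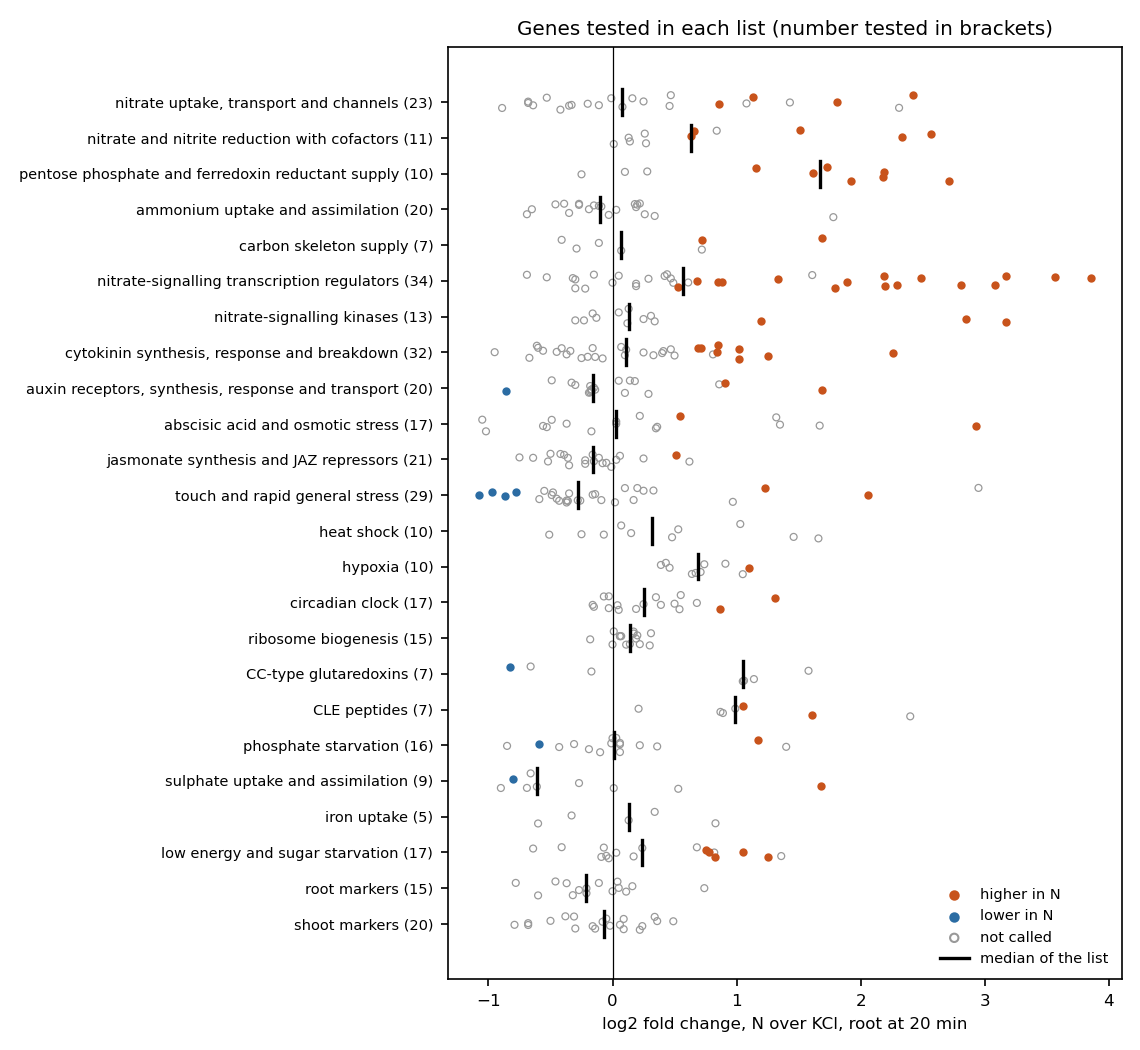
Log2 fold change of N over KCl in root at 20 min for each gene tested in 24 lists, with genes called higher in orange, lower in blue and not called as open circles; a bar marks each list's median, and the vertical line is no change. All calls among nitrate reduction, reductant supply and signalling regulators lie to the right of 0, and the touch and stress list has calls on both sides.

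Cytokinin genes had 8 of 32 members higher and 0 lower, with a median of 0.11. IPT3, the isopentenyltransferase whose induction by nitrate starts cytokinin synthesis, had 4.61, 7.99 and 7.26 CPM in N and 1.74, 1.34 and 1.045 CPM in KCl (log2 2.26, SE 0.384, adjusted p = 6.76e-05). CYP735A1, which converts the first product to trans-zeatin forms, had 5.59, 6.13 and 4.70 CPM in N and 2.85, 2.96 and 2.28 CPM in KCl (adjusted p = 0.0137), a call lost without N replicate 2 (0.0852) or KCl replicate 3 (0.0955). Of the type-A response regulators, which cytokinin induces, ARR3 had 32.4, 41.9 and 32.8 CPM in N and 13.9, 17.5 and 13.8 CPM in KCl (log2 1.25, SE 0.237, adjusted p = 0.00045) and ARR8 was higher by 0.69 (adjusted p = 0.00357). ARR7 (0.85) and ARR9 (0.71) passed with adjusted p = 0.0232 and 0.0324. The call of ARR7 was lost without N replicate 1 (0.0848), N replicate 2 (0.0737), KCl replicate 1 (0.162) or KCl replicate 3 (0.0594). That of ARR9 was lost without any 1 library except N replicate 3, with adjusted p of 0.0512 (KCl replicate 2) to 0.168 (KCl replicate 1). The response factor genes CRF4 and CRF3 were higher by 1.02 and 0.84 (adjusted p = 0.00018 and 0.00412), and CRF3 was not called without KCl replicate 1 (0.0696). None of the cytokinin oxidase genes CKX1 to CKX7 was called, with log2 values of -0.95 (CKX2) to 0.50 (CKX4).

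Auxin genes were called in 3 of 20 cases. AFB3, an auxin receptor of the nitrate response in root tips, had 107, 110.2 and 107 CPM in N and 58.3, 57.2 and 57.25 CPM in KCl (log2 0.91, SE 0.114, adjusted p = 1.72e-07). Its libraries were nearly equal within each group. IAA2, a rapidly auxin-induced Aux/IAA repressor, had 206, 307.5 and 262 CPM in N and 89.6, 77.8 and 72.4 CPM in KCl (log2 1.69, SE 0.215, adjusted p = 2.27e-07). LBD16, a factor of lateral root initiation, was lower, at 2.00, 3.005 and 3.25 CPM in N and 4.96, 5.03 and 5.10 CPM in KCl (adjusted p = 0.038), and its call was lost without any 1 library except N replicate 3, with adjusted p of 0.0987 (KCl replicate 2) to 0.255 (N replicate 1), and by limma voom it was 0.0547. TIR1, AFB1 and AFB2 stood at 0.05, -0.17 and -0.17 without a call. AFB3 overlaps AT1G12810 on the opposite strand by 63 bases, and that gene was higher by 0.87. A longer overlap on that strand, 638 bases or 25.1% of AFB3, is with AT1G04977, which was not tested.

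CYP707A3, an enzyme that breaks down abscisic acid, was the largest change among 17 genes of that hormone and of osmotic stress, 2 of which were higher. It had 108, 118 and 111 CPM in N and 20.55, 11.2 and 12.5 CPM in KCl (log2 2.93, SE 0.275, adjusted p = 1.16e-10), with 9.66, 17.0 and 9.19 CPM before treatment. PP2CA, a phosphatase of the abscisic acid pathway, was higher by 0.54 (adjusted p = 0.0382). Its call was lost without N replicate 1 (0.12), N replicate 2 (0.0927), KCl replicate 1 (0.0999) or KCl replicate 2 (0.169), and without the filter (0.0556). The osmotic stress genes RD29A, RD29B and RAB18 were not called, at 0.35, 1.32 and -1.02. Among 21 jasmonate genes only AOC3 passed (0.51, adjusted p = 0.01), and not without N replicate 3 (0.0607), KCl replicate 1 (0.0646) or KCl replicate 3 (0.066). The median of the jasmonate list was -0.16.

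Touch and rapid stress genes moved in both directions, 2 higher and 4 lower among 29, with a median of -0.28. SZF1, a stress-related zinc finger protein, had 160.3, 163 and 165 CPM in N and 76.55, 70.2 and 61.1 CPM in KCl (log2 1.23, SE 0.188, adjusted p = 9.77e-06). The cold response factor CBF2 was low, with 2.64, 1.55 and 1.11 CPM in N and 0.501, 0.414 and 0.340 CPM in KCl (adjusted p = 0.00711), and its call was lost without N replicate 1 (0.082) or KCl replicate 3 (0.0576). MYB15 fell to 30.3, 31.4 and 27.5 CPM in N, against 61.7, 68.6 and 59.1 CPM in KCl (log2 -1.08, SE 0.207, adjusted p = 0.000476), and ERF5 to 29.4, 28.2 and 29.7 CPM in N, against 49.7, 47.85 and 52.4 CPM in KCl (log2 -0.78, SE 0.131, adjusted p = 5.42e-05). Both are factors of rapid defence responses, and neither overlapped between groups. MYB51, a regulator of indole glucosinolates, and CML37, a calmodulin-like protein, were lower, at log2 -0.87 and -0.97 (adjusted p = 0.0264 and 0.0382). Each of these calls was lost on leaving out any 1 of the 6 libraries, with adjusted p of 0.0586 (N replicate 3) to 0.183 (N replicate 2) for MYB51 and 0.065 (KCl replicate 3) to 0.179 (N replicate 1) for CML37. Over all settings the log2 stayed between -0.9 and -0.77 for MYB51 and between -1.05 and -0.85 for CML37. CML37 was also not called without the libraries of 10 and 15 min (0.0622) or by limma voom (0.0645). WRKY40, WRKY33 and ZAT10 stood at -0.14, -0.48 and -0.16 without a call.

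Heat shock genes gave 0 calls of 10 in edgeR's test, with 1 higher and 1 lower at an unadjusted p under 0.05, and 0 calls by DESeq2 and limma voom. Of 10 hypoxia genes, only HRE1 was called, at 41.5, 48.5 and 36.1 CPM in N and 17.1, 21.0 and 20.7 CPM in KCl (adjusted p = 0.0352). Its call was lost without any 1 library except N replicate 3, with adjusted p of 0.0786 (N replicate 1) to 0.17 (N replicate 2). All 10 hypoxia genes had positive values (0.39 to 1.10), with a median of 0.69, and ADH1 averaged 4965 ± 703 CPM in N and 3692 ± 352 CPM in KCl. Before treatment HRE1 stood at 38.3, 93.2 and 42.5 CPM, above its level in KCl. In the clock list 2 of 17 genes were higher. RVE2 had 46.0, 55.9 and 35.6 CPM in N and 19.5, 15.5 and 20.3 CPM in KCl (log2 1.31, SE 0.299, adjusted p = 0.00431). LUX, of the evening complex, was higher by 0.87 (adjusted p = 0.022), overlaps AT3G46650 on the opposite strand for 38.5% of its length, and was called with all libraries or without N replicate 3, but not without any other 1 library (0.0629 for KCl replicate 2 to 0.168 for N replicate 2).

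Other nutrient and growth lists held few calls. SULTR1;2, the main sulphate transporter of roots, had 23.7, 27.2 and 26.7 CPM in N and 9.51, 7.26 and 7.34 CPM in KCl (log2 1.68, SE 0.379, adjusted p = 0.00391), while the median of the 9 sulphate genes was -0.61. LSU2, a gene of sulphur deficiency, was lower, at log2 -0.80 (adjusted p = 0.0465), and its call was lost with another scaling (0.0568 with RLE size factors), without the filter (0.0506), by limma voom (0.0826) and without any 1 library except KCl replicate 2 (0.0766 for N replicate 3 to 0.266 for N replicate 2). Of 16 phosphate genes 1 was higher and 1 lower. SPX4, a phosphate-sensing repressor that also joins nitrate with phosphate signalling, had 42.3, 47.7 and 53.0 CPM in N and 23.1, 21.85 and 18.7 CPM in KCl (log2 1.17, SE 0.15, adjusted p = 2.68e-07). SQD2 of sulpholipid synthesis was lower, at log2 -0.59 (adjusted p = 0.0135), not called without N replicate 1 (0.0663), N replicate 2 (0.128) or KCl replicate 1 (0.181). Iron uptake genes and the 15 genes of ribosome biogenesis had 0 calls in edgeR's test, DESeq2 and limma voom, with medians of 0.13 and 0.14. At an unadjusted p under 0.05 the iron list had 0 genes and the ribosome list 2, both higher.

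Low energy genes had 5 of 17 members higher and 0 lower. The bZIP factor gene bZIP2 had 442, 509 and 441.5 CPM in N and 212, 222 and 239.9 CPM in KCl (adjusted p = 8.96e-07). A relative of it, bZIP53, had 179.8, 205 and 176.5 CPM in N and 109.8, 105 and 114 CPM in KCl (adjusted p = 1.58e-05). TPS8, TPS9 and TPS10, class II trehalose phosphate synthase genes, were higher by 1.25, 0.75 and 0.83. TPS9 was not called without N replicate 2 (0.0605), N replicate 3 (0.0869), KCl replicate 2 (0.116) or KCl replicate 3 (0.0814). The starvation genes DIN10, SEN1 and bZIP1 had values of 0.68, 1.36 and 0.82 without a call. The signalling peptide genes CLE2 and CLE4 were higher by 1.05 and 1.61 with adjusted p = 0.0418 and 0.0453. The call of CLE2 was lost without any 1 library except N replicate 1 (0.0661 for KCl replicate 2 to 0.239 for N replicate 2), and that of CLE4 without any except N replicate 3 (0.103 for N replicate 1 to 0.222 for N replicate 2). CLE4 was also not called with the replicate block (0.051), without the filter (0.0533) or by limma voom (0.102), nor CLE2 without the filter (0.0502) or by limma voom (0.0518). Of the CC-type glutaredoxins, GRX480 was lower, at log2 -0.83 (adjusted p = 0.0378), not called without any 1 library except N replicate 3 (0.0698 for KCl replicate 2 to 0.344 for N replicate 2). The other 6 tested were not called, and at most 1.72 CPM in N except for AT1G06830.

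Genes outside the lists were also among those with the smallest p and the largest rises. RTFL17, a small peptide gene of the ROTUNDIFOLIA-like family, had 104, 128 and 121 CPM in N and 28.2, 16.9 and 21.2 CPM in KCl (log2 2.41, SE 0.195, adjusted p = 1.32e-11). AT1G78050, annotated as a phosphoglycerate mutase, had 187, 205 and 211 CPM in N and 43.0, 22.2 and 27.9 CPM in KCl (log2 2.69, SE 0.227, adjusted p = 1.32e-11). AT1G80380 is annotated only by its superfamily, the P-loop containing nucleoside triphosphate hydrolases. It had 162.5, 217 and 209 CPM in N and 40.2, 27.4 and 26.1 CPM in KCl (log2 2.65, SE 0.221, adjusted p = 1.32e-11). No N library of these came near a KCl library. AT3G07350, annotated with a DUF506 domain, had 43.4, 60.1 and 64.9 CPM in N and 7.18, 0.796 and 1.63 CPM in KCl (log2 4.09, SE 0.558, adjusted p = 1.01e-06), and its log2 was 5.51 without KCl replicate 1. AT5G10210 and AT2G48080, an oxygenase family gene, were both higher by 3.11, and AT5G26200, of the mitochondrial carrier family, by 3.21.

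Among called genes of at least 5 CPM whose groups did not overlap, the largest fold belonged to AT5G40855, an uncharacterized gene with 12.5, 16.03 and 8.94 CPM in N and 0.9795, 0.03185 and 0.267 CPM in KCl (log2 4.79, SE 0.644, adjusted p = 1.13e-06, or log2 6.28 without KCl replicate 1 and 5.55 by limma voom). It lies within UPM1 on the opposite strand for 85.7% of its length. Without the strand setting of the counting the reads of the 2 genes cannot be told apart on the bases they share. In N roots at 30 min UPM1 had 1120, 940.9 and 1040 CPM and AT5G40855 2.445, 5.047 and 6.933 CPM. In N shoots at 20 min UPM1 had 573.7, 442.6 and 552.0 CPM and AT5G40855 0.8575, 0.4595 and 0.0 CPM. The part of shared reads in the call was not tested. AT2G27505, of the FBD-like domain family, averaged 8.07 ± 2.82 CPM in N and 0.586 ± 0.129 CPM in KCl (log2 3.78).

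KCl replicate 1 was the highest of the 3 controls for 303 of the 595 genes higher in N (50.9%), against 35.2% of all genes tested. It was also the highest for 112 of the 239 lower genes (46.9%). N replicate 3 was the highest of the 3 N libraries for 132 of the 239 lower genes (55.2%), against 31.9% of all genes tested, and N replicate 2 for 266 of the 595 higher genes (44.7%), against 36.8%. Of the 834 calls 520 were kept without N replicate 1, 446 without N replicate 2, 673 without N replicate 3, 495 without KCl replicate 1, 500 without KCl replicate 2 and 488 without KCl replicate 3. For AT5G40855, AT3G07350, BT1 and LBD39 the fold grew by over 1.5 times without KCl replicate 1. Named genes that lost their call of N against KCl on leaving out 1 library kept their fold within 1.5 times.

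Genes lower in N had a smaller median fold over all levels together. AT2G44940, a DNA-binding protein of the AP2/ERF type, had 16.45, 16.3 and 15.9 CPM in N and 41.25, 44.8 and 50.7 CPM in KCl (log2 -1.49, SE 0.162, adjusted p = 5.2e-09). BRG1, an S-ribonuclease binding family protein, fell to 28.3, 26.2 and 30.2 CPM in N, against 55.2, 54.6 and 59.3 CPM in KCl (log2 -1.0, SE 0.113, adjusted p = 1.75e-08). RHA2B, a RING-H2 finger protein, fell to 20.3, 26.3 and 24.7 CPM in N, against 43.05, 46.1 and 45.2 CPM in KCl (log2 -0.91, SE 0.119, adjusted p = 3.5e-07). The 3 N libraries lay below the 3 KCl libraries for each of the 3 genes, and the spread within groups was small. AT2G23270, an uncharacterized gene, had 4.18, 3.55 and 6.35 CPM in N and 25.0, 30.8 and 28.0 CPM in KCl (log2 -2.58, SE 0.355, adjusted p = 1.19e-06), and the F-box gene AT4G22030 had 1.16, 0.906 and 0.813 CPM in N and 6.25, 5.73 and 7.02 CPM in KCl (log2 -2.73, SE 0.43, adjusted p = 1.89e-05).

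The neighbouring and similar peroxidase genes PER4 and AT1G14550 were lower, at log2 -1.44 and -2.19 (adjusted p = 0.00586 and 0.00459). PER4 was not called without N replicate 2 (0.0612) and AT1G14550 not by limma voom (0.0605). ZAT11, a zinc finger factor of stress responses, averaged 2.72 ± 0.862 CPM in N and 8.08 ± 1.74 CPM in KCl (log2 -1.57), MYB42, of the group of factors linked to secondary walls, 2.9 ± 0.438 CPM in N and 7.58 ± 2.52 CPM in KCl (log2 -1.39), and GPAT3 of glycerolipid synthesis 10.09 ± 0.934 CPM in N and 23.3 ± 6.26 CPM in KCl (log2 -1.20). Of the 239 lower genes, 10 were lower by at least 2 on the log2 scale, against 162 of the 595 higher genes that were higher by as much. Among the 162, 71 had under 1 CPM and 51 had 1 to 10 CPM, and among the 10 these were 4 and 5.

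Whether the response at 20 min differed from that of the times around it was asked by testing the difference of the differences. These times share no library. At 30 min 734 genes were higher in N (3.31% of those tested) and 489 lower (2.2%), 5.51% together. The 353 genes higher at both times were 59.3% of those of 20 min and 48.1% of those of 30 min, and the 126 lower at both were 52.7% and 25.8% of the lower genes of each time. None was called in opposite directions. Across the 834 genes called at 20 min, 811 had the same sign at 30 min, and the log2 values of both times had r = 0.77, as a description over genes, which are not independent replicates.

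The test of the difference itself called 8 of 22185 genes (0.0361%), 7 with a lower (0.0316%) and 1 with a higher (0.00451%) N effect at 20 min. AT1G73920, an alpha/beta hydrolase, had 85.8, 88.0 and 109 CPM in N and 50.7, 38.35 and 44.7 CPM in KCl at 20 min, and 181, 199 and 207 CPM in N and 39.8, 41.2 and 38.5 CPM in KCl at 30 min (difference log2 -1.22, SE 0.211, adjusted p = 0.0159). TGA1 had 564, 497 and 607.5 CPM in N and 172, 143 and 137 CPM in KCl at 30 min (difference log2 -1.03, SE 0.196, adjusted p = 0.036). For both genes the N libraries were higher at 30 than at 20 min while the KCl libraries overlapped. The kinase genes CIPK23 and SNRK2.9 were not called at 20 min, and stood at log2 0.25 and 0.16 then and at 0.86 and 1.39 at 30 min. AT3G13600, annotated as a calmodulin-binding family protein, was the gene with the higher value, -0.36 at 20 min and -1.77 at 30 min. In a fit of the 12 compared libraries alone none was called. There AT1G73920 had adjusted p = 0.0609 and the other 5 of the 6 with the smallest p had 0.108 to 0.116, while DESeq2 called 51 with its own estimate of the spread. No gene was called without N replicate 1, N replicate 2, KCl replicate 1 or KCl replicate 3 of 20 min, or without N replicate 3, KCl replicate 2 or KCl replicate 3 of 30 min. The count was 3 without N replicate 3 of 20 min or N replicate 2 of 30 min, and 1 without N replicate 1 of 30 min.

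**Figure D4:**
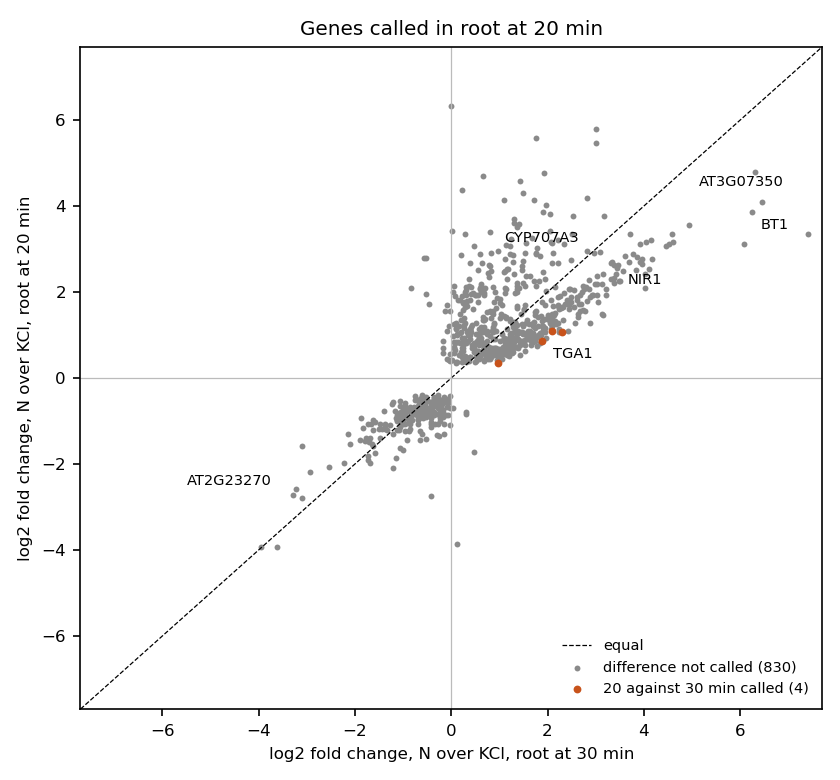
Log2 fold change of N over KCl in root at 20 min against that at 30 min for the 834 genes called at 20 min, with the 4 of them whose difference between the times was called in orange and the dashed line marking equal values. NIR1, BT1 and TGA1 lie below the line, with a larger value at 30 min.

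Against 15 min the test called 799 genes (3.6%), 753 with a higher (3.39%) and 46 with a lower (0.207%) N effect at 20 min. At 15 min 1831 genes were higher in N and 3766 lower, of 22185 tested. The 363 genes higher at both times were 61.0% of those of 20 min and 19.8% of those of 15 min. The 176 lower at both were 73.6% and 4.67% of the lower genes of each time. Of the genes higher at 20 min, 3 were called lower at 15 min. The 15 min libraries are among those that stood apart, and the libraries and the time cannot be told apart there. Reads aligned to several places made up 48.6% in KCl replicate 2 of 15 min and 35.2% in N replicate 2. The other 15 min libraries had 11.4% to 15.8%. The part of this in the calls was not tested. AT1G08400, of the RINT-1 family, stood at log2 0.85 at 20 min and -0.71 at 15 min (difference log2 1.57, SE 0.157, adjusted p = 1.5e-08). AXR1, which acts in auxin signalling, stood at 0.18 at 20 min and -0.95 at 15 min, and its difference from 5 min was not called (0.14, adjusted p = 0.589). Leaving out N replicate 1 (456), KCl replicate 2 (460) or KCl replicate 3 (443) of 20 min, or N replicate 2 (277) or KCl replicate 1 (343) of 15 min, lowered the count by over 1.5 times.

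With 5 min in place of 15 min, a comparison added after the data were seen, 974 genes differed (4.39%), 505 with a higher (2.28%) and 469 with a lower (2.11%) N effect at 20 min. At 5 min 266 genes were higher in N (1.2%) and 170 lower (0.766%), 1.97% together. UPM1 stood at log2 0.69 at 5 min, against 2.33 at 20 min (difference log2 1.64, SE 0.265, adjusted p = 0.000228). HRS1 stood at 0.66 at 5 min (difference log2 2.15, SE 0.329, adjusted p = 9.73e-05) and BT1 at 0.31 (difference log2 3.55, SE 0.656, adjusted p = 0.00128). For IAA2 and AFB3 the value at 5 min was 0.07 in each, and their differences were called as well (log2 1.63, SE 0.298, adjusted p = 0.00115 for IAA2, and log2 0.83, SE 0.16, adjusted p = 0.00181 for AFB3). NIR1 already stood at 1.61 at 5 min (adjusted p = 0.000579), and its difference was not called (log2 0.96, SE 0.351, adjusted p = 0.0954). The 42 genes higher at both times were 7.06% of those of 20 min and 15.8% of those of 5 min, and 3 of the 239 lower genes were lower at 5 min. Called in the opposite direction at 5 min were 2 of the higher and 2 of the lower genes.

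Shoots of the same treatments at 20 min were compared in a fit of 12 libraries, 6 of each organ. The shoot count files list 0 for organelle genes and for reads aligned to several places, unlike the root files, and shoot libraries hold 9714858 to 19078507 gene counts. Of 565 genes called higher in root and tested in both, 255 were also higher in shoot (45.1%, and 40.5% of the 629 higher in shoot). Of 239 genes lower in root, 11 were lower in shoot (4.6%, and 11% of 100). Called in the opposite direction in shoot were 3 of the genes lower in root and 1 of those higher in root. The difference between the organs was called for 272 of 21530 genes (1.26%), 76 with a higher (0.353%) and 196 with a lower (0.91%) N effect in root. In shoot alone 740 genes were called (3.44%), 635 higher in N (2.95%) and 105 lower (0.488%).

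NRT2.1 had a lower effect in root. Its roots held 459, 441 and 536 CPM in N and 171, 111 and 129 CPM in KCl, and shoots 97.0, 77.8 and 85.1 CPM in N and 2.92, 3.04 and 3.04 CPM in KCl (root minus shoot log2 -3.04, SE 0.234, adjusted p = 3.15e-05). LBD37 had 425, 351 and 471 CPM in N shoots, where N roots had 414, 427 and 517 CPM, but 11.3, 10.2 and 12.6 CPM in KCl shoots, where KCl roots had 105, 65.6 and 71.95 CPM (root minus shoot log2 -2.71, SE 0.255, adjusted p = 0.000141). CRF3 had 93.7, 89.1 and 91.75 CPM in N shoots and 6.17, 7.48 and 6.205 CPM in KCl shoots, and its roots had 25.0, 25.8 and 24.3 CPM in N and 10.5, 15.6 and 15.8 CPM in KCl (root minus shoot log2 -2.94, SE 0.205, adjusted p = 1.67e-05). For all 3 genes the KCl libraries of shoots were below their N libraries without overlap. AT5G09800, an ARM repeat gene, and HSFB2A, a heat shock factor, also had lower effects in root (root minus shoot -2.41 and -1.51).

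A higher effect in root was seen for AT1G24290 and AT1G80380. AT1G24290, an AAA-type ATPase family gene, had 50.3, 55.9 and 45.65 CPM in N roots and 8.12, 6.15 and 5.73 CPM in KCl roots, and 8.575, 8.12 and 10.6 CPM in N shoots and 7.49, 7.84 and 6.205 CPM in KCl shoots (root minus shoot log2 2.6, SE 0.232, adjusted p = 8.83e-05). It is the gene that overlaps G6PD3 on the opposite strand, by 76 bases or 4.27% of its length. On that strand it also overlaps AT1G05873, which was not tested, by 885 bases or 49.7%. AT1G80380 stood at 63.5, 52.5 and 57.45 CPM in N shoots and 33.15, 38.9 and 43.9 CPM in KCl shoots (root minus shoot log2 2.07, SE 0.242, adjusted p = 0.00076). ERF5 was lower in N roots and had 108, 139 and 106 CPM in N shoots and 53.0, 71.6 and 66.9 CPM in KCl shoots (root minus shoot log2 -1.66, SE 0.181, adjusted p = 0.000436). Leaving out 1 library gave 113 to 556 calls. The count fell without N replicate 1 (113), N replicate 2 (124), KCl replicate 1 (136) or KCl replicate 3 (154) of roots, and without KCl replicate 2 (136) or KCl replicate 3 (118) of shoots, and rose without N replicate 3 of shoots (556).

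**Figure D5:**
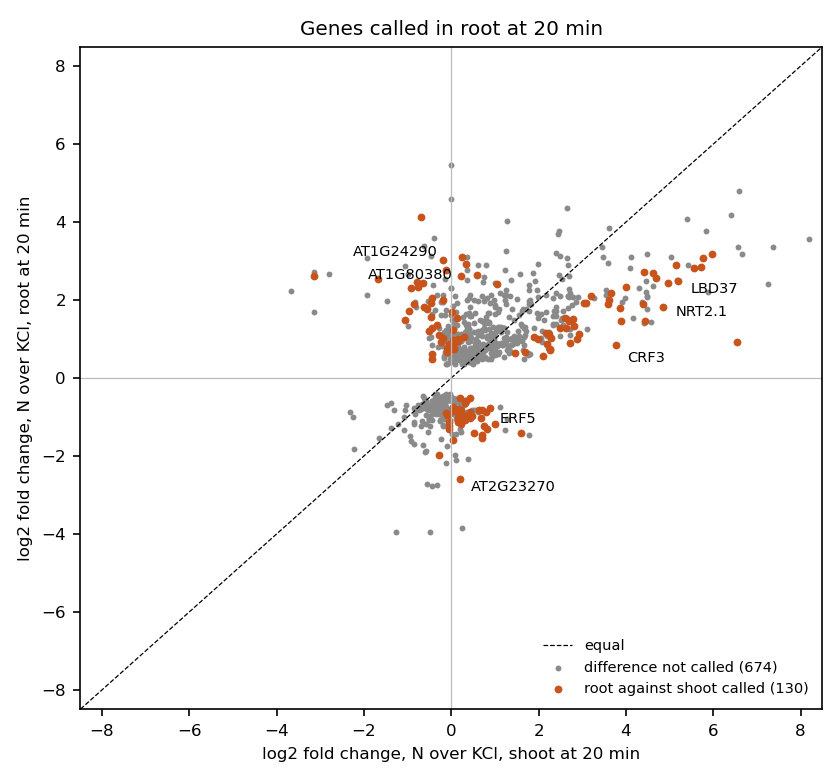
Log2 fold change of N over KCl at 20 min in root against that in shoot for the 804 genes called in root and tested in both organs, with the 130 whose difference between organs was called in orange and the dashed line marking equal values. NRT2.1, LBD37 and CRF3 lie far to the right of the line, and AT1G24290 and AT1G80380 far to the left.

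The control itself differed from the untreated roots. Between KCl roots at 20 min and untreated roots 4456 of 22185 genes differed (20.1%), 2195 higher (9.89%) and 2261 lower (10.2%) in KCl. The untreated libraries were deeper, with 80724946 to 143269564 gene counts against 28193876 to 41978383 in KCl, and the part of depth was not tested. Since these KCl libraries are also the control for N, values are only given side by side. NIR1 was higher in KCl than before treatment by log2 1.32 (adjusted p = 0.000474) and LBD38 by 1.34 (adjusted p = 0.00218), while N stood above KCl by the values given above. For RFNR1 and CNX2 the KCl level differed from the untreated level by 0.06 and -0.01 without a call. HRE1 was lower in KCl than before treatment, at log2 -1.57 (adjusted p = 0.000829), and so was CIPK3, at -0.71 (adjusted p = 0.000829). Without KCl replicate 1 the count was 2138, without untreated replicate 1 it was 2522 and without untreated replicate 3 it was 2420.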

How the data were processed

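Whole roots and shoots were sequenced as polyadenylated RNA with second-strand dUTP marking, per the labels' protocols. The values are raw counts of reads per gene as deposited by the authors, 28712 gene identifiers in 1 file per library. Per the submitters' processing notes TAIR10, TopHat2 (version 2), HTSeq and limma were used, without stated roles. The strand setting of the counting is not given in the sources used here, so counts of overlapping genes are uncertain, which holds for 26 of 117 genes looked up for overlap. The 5 closing lines of each file, which name no gene, were left out; they held 12.8% to 15.5% of all counts in the N libraries and 13.0% to 14.2% in the KCl libraries.

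Groups come from the titles (the treatment tag of N samples names KNO3 alone, and the protocol text was followed for the doses), and times, given without a unit, are read as minutes. Root replicate 1 of time 0 is root by title and shoot by its source name, and was used as root. In edgeR 4.0.16 (R 4.3.3), 57 root libraries in 19 groups were fitted with 1 mean per group, TMM scaling and filterByExpr (minimum count 10, minimum total 15). Contrasts were tested by the quasi-likelihood F-test, SE is the log2 fold change over the root of F, and p-values were adjusted by Benjamini-Hochberg over every gene in the fit (threshold 0.05). The organ difference was tested in a fit of the 12 libraries at 20 min. An exact permutation test of 3 against 3 libraries cannot go below a two-sided p of 0.1 and was not used.

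Named genes are members of gene lists, the 12 largest rises and falls with a mean of at least 5 CPM and no overlap, the 12 smallest p in each direction, and the 6 smallest p of each difference. The members, lists and rules were chosen with earlier results of these data known. Symbols, promoter windows and gene overlaps come from RefSeq's TAIR10.1, matched by locus tag. The alternatives were the compared libraries alone, RLE size factors, no filter, a replicate block, DESeq2 1.42.0, limma voom 3.58.1, leaving out each library and, added after the data were seen, a fit without the libraries of 10 and 15 min and 5 min in place of 15 min. The N libraries hold 25887452 to 38466832 and the KCl libraries 28193876 to 41978383 counts on genes, and low counts widen the SE of a gene.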

Additional observations from a re-analysis of the deposited data

Results flagged for a closer look

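A change of the N effect with time or organ was itself called by edgeR's quasi-likelihood test with Benjamini-Hochberg adjustment for 799 genes against 15 min, 8 against 30 min and 272 between organs. The 6 genes with the smallest p of each test are given here, and no cause was tested. Against 15 min, whose libraries stood apart, the log2 N effect at 20 min was higher for AT1G08400 (by 1.57), AT2G27460 of the sec23/sec24 transport family (1.54), AT3G58760 of the integrin-linked kinase family (1.16), AXR1 (1.13), AT2G06025 of the acyl-CoA N-acyltransferases (1.42) and TOM3 (1.07). The N effect at 20 min itself was log2 0.85 for AT1G08400, but -0.03 for AT2G27460 and 0.03 for AT2G06025. A higher difference is thus not always a rise in N at 20 min. With 5 min in place of 15 min only AT1G08400 (0.86, adjusted p = 0.00026) and AT3G58760 (0.45, adjusted p = 0.0457) of these 6 were called. Against 30 min the difference was -1.22 for AT1G73920, -1.03 for TGA1, -1.23 for SNRK2.9, -0.62 for CIPK23, -0.63 for AT4G14500 of the polyketide cyclase and lipid transport superfamily, and 1.41 for AT3G13600. Root minus shoot was -2.94 for CRF3, -3.04 for NRT2.1, -2.41 for AT5G09800, 2.6 for AT1G24290, -1.51 for HSFB2A and -2.71 for LBD37.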

How the results depend on the processing

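The count of 834 genes for N against KCl was 2233 in a fit of the 6 compared libraries alone (797 of the 834 among them), and 449 to 746 on leaving out 1 library. With RLE size factors, no filter, the replicate block, DESeq2, limma voom or without the libraries of 10 and 15 min it stayed between 748 and 1013. The difference from 15 min (799) was 372 for the compared libraries alone and 277 to 918 on leaving out 1. The difference from 30 min (8) was 0 for the compared libraries alone, 1 without the filter, 17 without the libraries of 10 and 15 min, 51 with DESeq2 and 0 to 9 on leaving out 1. The organ difference (272) was 859 with DESeq2 and 113 to 556 on leaving out 1. KCl against time 0 (4456) was 2138 to 4597 on leaving out 1. With 5 min in place of 15 min, all 6 genes named for that difference moved by over 1.5 times: TOM3 stood at -0.04 and AT2G27460 at -0.20, the other direction, AXR1 (0.14) and AT2G06025 (0.24) lost their calls, and AT1G08400 (0.86) and AT3G58760 (0.45) kept theirs. The cause was not tested. Of 103 named genes called at 20 min, 78 kept their call on leaving out any 1 library and 95 under all 7 other settings. Same-numbered N and KCl libraries of 20 min deviated together weakly or not at all (r = 0.106, 0.0391 and -0.167). At 15 min r was 0.0973, 0.0892 and 0.0402, above every r of unlike numbers there (at most 0.00226). At 30 min it was 0.0822, -0.264 and 0.21. So few values cannot show whether the numbers pair the samples. With a replicate block 833 genes were called at 20 min, 772 against 15 min and 10 against 30 min. It gave 191 between organs and 4438 for KCl against time 0. Among named genes the block changed the call of CLE4 alone. Among genes called higher, the median log2 was 2.86 under 1 CPM, 1.57 at 1 to 10, 0.86 at 10 to 100 and 1.17 at 100 CPM or more, and the part of depth in this was not tested.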

Other observations

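The genes called higher in N covered the whole range of levels. With the mean of N as the level, 80 had under 1 CPM, 179 had 1 to 10 CPM, 256 had 10 to 100 CPM and 80 had at least 100 CPM. Of the 162 that were higher by at least 2 on the log2 scale, 71 had under 1 CPM and 18 at least 100 CPM. Of the 239 lower genes, 147 had 10 to 100 CPM in KCl, with a median log2 of -0.77, and 5 had under 1 CPM. The share of all genes tested at each level is not given here. These counts therefore do not show that the response favours a level.

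Other genes found by the naming rules were AT4G09620, of the mitochondrial transcription termination factors (log2 1.89, adjusted p = 4.68e-11), and AT4G25835, of the P-loop containing nucleoside triphosphate hydrolases superfamily (log2 2.62, adjusted p = 4.74e-11). Among the lower genes were AT2G44578, of the RING/U-box family (log2 -1.97), and the uncharacterized genes AT1G35210 (-1.53), AT4G28460 (-1.47), AT3G50340 (-0.89) and AT3G01513 (-1.24). AT1G16500 stood at -1.18 and AT1G21050, of the MIZU-KUSSEI-like proteins, at -0.76. The uncharacterized AT4G37290 (-1.97) was not called without N replicate 2 (0.116) or KCl replicate 3 (0.0523). AT3G32030, a terpenoid cyclase family gene (-1.42), was not called without N replicate 1 (0.0857), N replicate 2 (0.23), KCl replicate 1 (0.0701) or KCl replicate 3 (0.0554). AT3G02840, an ARM repeat gene (-1.59), was not called without any of the 3 N libraries in turn (0.0561, 0.0616 and 0.0655) or without KCl replicate 2 (0.0968).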
